A study of Mus musculus with 12 samples.

Results

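The genes described here are 8 genes of peripheral myelin, Pmp22, Mbp, Pmp2, Mag, Prx, Mal, Fa2h and Gldn, measured in trigeminal ganglia of mice. They are given by symbol as a set of known myelin genes, a set drawn up with earlier results of these data in view, and are 8 of the 51341 genes of the deposited table. The trigeminal ganglion holds the cell bodies of the sensory neurons of the face and the meninges, together with satellite glia and the Schwann cells of their axons. Poly A RNA was sequenced from the ganglia of 12 CD1 mice, an outbred stock in which no 2 animals need share a genotype. The 6 responders were mice that reacted to PACAP, the neuropeptide pituitary adenylate cyclase-activating polypeptide, the 6 nonresponders did not, and each group held 3 males and 3 females. All 12 mice share the stock and the tissue. The sources used here do not give the age of the mice, the way a response was scored or the time since PACAP.

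In peripheral nerves each myelinating Schwann cell wraps 1 stretch of 1 axon, and its membrane becomes compact myelin, noncompact channels and loops, and the contacts at the node of Ranvier. Compact myelin is held together by proteins such as Pmp22, a membrane protein whose gene dose is critical for nerve function, Mbp, which binds the cytoplasmic faces to each other, Pmp2, a fatty acid binding protein of the sheath, and Mal, a proteolipid. Mag sits in the membrane that faces the axon, Prx (periaxin) links the outer membrane to the basal lamina, Fa2h makes the hydroxylated fatty acids of myelin lipids, and Gldn (gliomedin) is released by Schwann cells to cluster sodium channels at the node. Mbp, Mag, Mal and Fa2h are also made by oligodendrocytes, the myelin cells of the central nervous system, whereas Prx and Pmp2 are known mainly from Schwann cells.

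The results below turn on the proportions between Prx, Pmp22 and Gldn, so their promoter windows are shown, each 300 bases from 250 before to 50 after the annotated start, from RefSeq (GRCm38.p6). Windows were found for 5 of the 8 members, and 4 of the windows belong to Pmp22, of which the first is printed. Capitals mark matches, on either strand, to a SOX core (ACAAAG), a TEAD core (GGAATG) or an EGR core (GTGGGNG), letters bound by factors of the families of Sox10, Tead1 and Egr2 that act in Schwann cells.
Prx, chr7:27499074-27499373, plus strand: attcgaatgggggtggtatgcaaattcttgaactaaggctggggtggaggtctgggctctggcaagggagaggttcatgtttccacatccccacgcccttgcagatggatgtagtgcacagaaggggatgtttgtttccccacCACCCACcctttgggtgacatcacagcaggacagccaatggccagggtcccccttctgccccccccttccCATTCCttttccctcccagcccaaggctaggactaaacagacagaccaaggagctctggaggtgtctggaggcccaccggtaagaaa
Pmp22, chr11:63128732-63129031, plus strand: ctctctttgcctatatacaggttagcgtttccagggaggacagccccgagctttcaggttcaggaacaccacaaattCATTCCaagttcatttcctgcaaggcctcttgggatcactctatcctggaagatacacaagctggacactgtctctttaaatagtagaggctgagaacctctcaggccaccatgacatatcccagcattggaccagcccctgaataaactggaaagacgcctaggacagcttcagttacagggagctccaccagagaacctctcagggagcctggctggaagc
Gldn, chr9:54286236-54286535, plus strand: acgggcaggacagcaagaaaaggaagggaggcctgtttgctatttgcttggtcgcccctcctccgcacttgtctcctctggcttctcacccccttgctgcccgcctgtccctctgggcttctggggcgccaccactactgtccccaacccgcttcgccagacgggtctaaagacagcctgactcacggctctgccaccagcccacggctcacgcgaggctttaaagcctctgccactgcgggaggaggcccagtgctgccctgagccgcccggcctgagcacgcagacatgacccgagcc

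The Prx window held 1 TEAD core, 37 bases before the start, and 1 EGR core, 107 bases before it. The Pmp22 window held 1 TEAD core, 173 bases before the start, and the Gldn window held no match. Over all 10 windows of the 5 members, 4 held a TEAD core, 3 an EGR core and 2 a SOX core. The 2 windows with a SOX core are overlapping windows of Mag that hold the same match, and both also hold the same EGR core, so the same site is counted in both windows. Among 32851 mouse promoter windows of the same length, with no chromosome left out, 14.7% held a TEAD core, 31.6% an EGR core and 18.7% a SOX core. The motifs do not overlap each other within these windows, and a match is only a run of letters.

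In GRCm38 with the GENCODE M21 annotation, all 8 are protein-coding genes. Pmp22 (ENSMUSG00000018217) lies on chromosome 11 at 63128982 to 63159547, Pmp2 (ENSMUSG00000052468) on chromosome 3 at 10179851 to 10183929 and Fa2h (ENSMUSG00000033579) on chromosome 8 at 111345135 to 111393824. Mbp (ENSMUSG00000041607) lies on chromosome 18 at 82475146 to 82585637, Mal (ENSMUSG00000027375) on chromosome 2 at 127633226 to 127656695 and Gldn (ENSMUSG00000046167) on chromosome 9 at 54286486 to 54341786. Both Mag (ENSMUSG00000036634; 30899176 to 30914873) and Prx (ENSMUSG00000053198; 27499324 to 27520214) lie on chromosome 7. Gm37389 overlaps Pmp2 on the same strand, shares 1226 bases with it at 100% identity and was listed at 0 FPKM in all mice, so the value of Pmp2 is uncertain. The antisense gene Gm15541 lies within Prx and was listed at 1.64 to 3.06 FPKM.

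Values are FPKM, fragments per kilobase of gene scaled to the depth of the library, as deposited. The totals per mouse ran from 286388 to 358590 FPKM, and the best-fitting steps between low values gave rough depths of 17500000 to 39100000 fragments per mouse. Responder 1 stood apart: 8 pituitary markers took 21.7% of its FPKM. They took 2.25% in responder 2, 1.23% in responder 3 and at most 0.399% in the other mice. A share of that size can lower the other genes of the same library, and whether it did so in responder 1 was not tested. The median ratio of its genes to their average over all mice was 1.022, within the range of 0.974 (nonresponder 4) to 1.025 (nonresponder 5). Its total without the markers was the lowest, at 280680 FPKM, with 285800 FPKM in nonresponder 6. Responder 1 also had the lowest sums of all mice for neuron markers (3609.8 FPKM), satellite glial markers (734 FPKM) and compact myelin genes (2535.9 FPKM). It was not the lowest for oligodendrocyte (89.1 FPKM), endothelial (53.5 FPKM) or macrophage markers (56.7 FPKM). Each first number of the sample descriptions belonged to mice of 1 group only, so whatever those 7 numbers stand for and the response cannot be told apart. A group difference in bulk tissue can come from fewer Schwann cells or from less RNA per cell, and these cannot be told apart either.

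Pmp22 had the highest level of the members in every mouse and ranked 18th of the 14203 genes tested by mean FPKM. Responders 1 to 6 had 751, 953, 856, 1205, 1520.0 and 1455 FPKM, and nonresponders 1 to 6 had 2060, 1327, 1416, 1418, 1617 and 1761 FPKM. Responders 1 to 4 lay below every nonresponder, while responders 5 and 6 lay among them. The means were 1123 ± 320 and 1600 ± 275 FPKM (SD, n = 6 per group).

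Mbp was the second in every mouse. Responders had 273, 440.5, 436, 308, 460.2 and 495 FPKM, and nonresponders had 637, 459, 645, 490.1, 545 and 880.1 FPKM. Again 4 of 6 responders lay below the lowest nonresponder, and the highest level, in nonresponder 6, was 3.23 times the lowest, in responder 1. The means were 402 ± 89.7 and 609 ± 153 FPKM.

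Pmp2 was the lowest of the 7 members with levels above 1 FPKM and varied most, by 9.59 times between the lowest and the highest mouse. It stood at 2.12, 4.05, 1.61, 3.20, 3.51 and 5.01 FPKM in responders and at 14.4, 9.26, 4.17, 8.87, 15.4 and 10.5 FPKM in nonresponders. Responder 6 exceeded nonresponder 3, and otherwise the groups were apart. The mean of nonresponders was 3.21 times that of responders.

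Mal, the remaining compact myelin protein, was listed at 0 to 0.362 FPKM in responders and at 0.192 to 0.623 FPKM in nonresponders. It failed the minimum of 1 FPKM in 3 mice, was not tested, and enters only the sums below. Widely used genes were also listed low (Eef2, a translation factor of every cell, at 1.41 to 7.39 FPKM), so the listing of Mal does not show that it was not expressed.

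Mag had 21, 28, 47.9, 23.0, 29.9 and 34.0 FPKM in responders and 37.2, 34.7, 53.4, 36.9, 47.6 and 71.2 FPKM in nonresponders. Responder 3 alone lay within the range of the nonresponders, and the other 5 responders were below all of them.

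Prx differed least between the groups. Its levels were 121, 180.3, 160.1, 212, 244 and 245 FPKM in responders and 251.4, 169, 209.6, 182, 251.2 and 257 FPKM in nonresponders. Only responders 1 and 3 lay below the lowest nonresponder, and the means of 194 ± 49.2 and 220 ± 38.7 FPKM differed by less than either SD.

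Fa2h stood at 25.5, 31.3, 36.4, 35.2, 46.1 and 44.4 FPKM in responders. In nonresponders it stood at 60.0, 46.1, 51.1, 46.5, 49.95 and 69.3 FPKM. The groups met only at their edges, where responder 5 and nonresponder 2 had the same level to 3 digits.

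Gldn had 5.82, 8.36, 8.28, 9.22, 13.8 and 11.5 FPKM in responders. It had 19.6, 12.4, 14.7, 16.1, 17.4 and 17.2 FPKM in nonresponders. Responder 5 exceeded nonresponder 2, and the other 5 responders lay below all nonresponders.

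**Figure D1:**
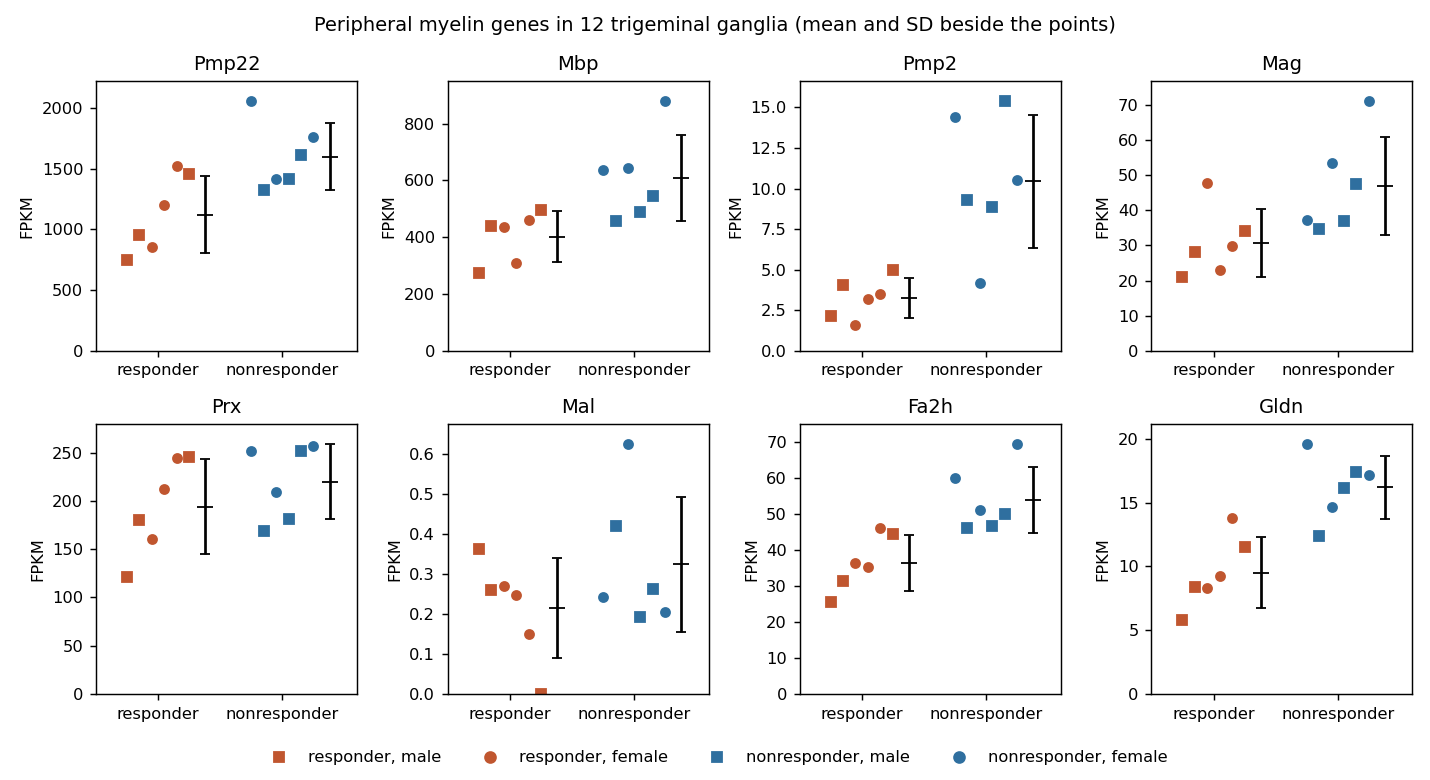
FPKM (vertical axis, linear from 0) of the 8 peripheral myelin genes in each of 6 responders and 6 nonresponders, with squares for males, circles for females, and the mean with its SD beside the points. The groups overlap in every panel; in Pmp2, Mag, Fa2h and Gldn 5 of 6 responders lie below the lowest nonresponder, and in Prx 2 of 6.

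None of the 8 members separated the groups completely, as 0.549% of all tested genes did. For Pmp2, Mag, Fa2h and Gldn 5 responders lay below the lowest nonresponder, which was so for at least 5 responders in 1.46% of all tested genes. The comparison of responders with nonresponders was fitted with limma on log2(FPKM + 1) over all 14203 genes with sex as covariate, and called genes at an adjusted p under 0.05. Over all genes 3 passed (0.0211%), and 0 of the 7 tested members did. All 7 had values below 0, against 49.3% of all genes, and 6 were lower at an unadjusted p under 0.05, as 4.17% of all genes were. Their median log2 difference was -0.60, with 0.0034 over all genes. These members varied together over the same mice and were chosen with earlier results of these data in view, so their counts are not independent of each other.

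Pmp2 had the smallest p of the members, with a log2 difference of -1.39 (SE 0.279, 95% interval -2.0 to -0.78, limma adjusted p = 0.259), and ranked 21st of all genes by p. Gldn followed at -0.74 (SE 0.167, -1.11 to -0.38, limma adjusted p = 0.308), and Fa2h at -0.56 (SE 0.134, -0.85 to -0.27, limma adjusted p = 0.371). For these 3 genes, and for Mbp, Mag and Pmp22, the interval excluded 0, but the adjustment over all genes left none of them past the threshold. Mbp, Mag and Pmp22 had -0.60, -0.60 and -0.54, with limma adjusted p of 0.504, 0.588 and 0.583. Prx had -0.20 with an interval of -0.59 to 0.18 (limma adjusted p = 0.797), the member nearest to 0 and 4831st by p.

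The 2 libraries with most pituitary transcripts bear on these sizes. Without responders 1 and 2, the differences were -1.26 for Pmp2, -0.58 for Gldn, -0.57 for Mbp, -0.52 for Mag, -0.44 for Fa2h, -0.38 for Pmp22 and -0.05 for Prx, and 4 members kept an unadjusted p under 0.05. When each mouse was instead rescaled to its sum without the pituitary markers, 6 members had such a p, and the differences ran from -1.35 for Pmp2 to -0.15 for Prx. Averaged within the numbers of the descriptions, Pmp22 stood at 852 to 1520.0 FPKM over the 4 responder numbers and at 1416 to 1910.5 FPKM over the 3 nonresponder numbers. Pmp2 and Prx overlapped likewise. Mbp (357 to 495 and 498 to 759 FPKM), Mag (24.5 to 35.5 and 39.7 to 54.2), Fa2h (28.4 to 46.1 and 47.5 to 64.65) and Gldn (7.09 to 13.8 and 14.7 to 18.4) did not overlap. The share of all genes without such overlap was not computed. A limma fit of log2 values averaged by number gave -1.11 for Pmp2 (limma adjusted p = 0.608) and called 0 members.

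**Figure D2:**
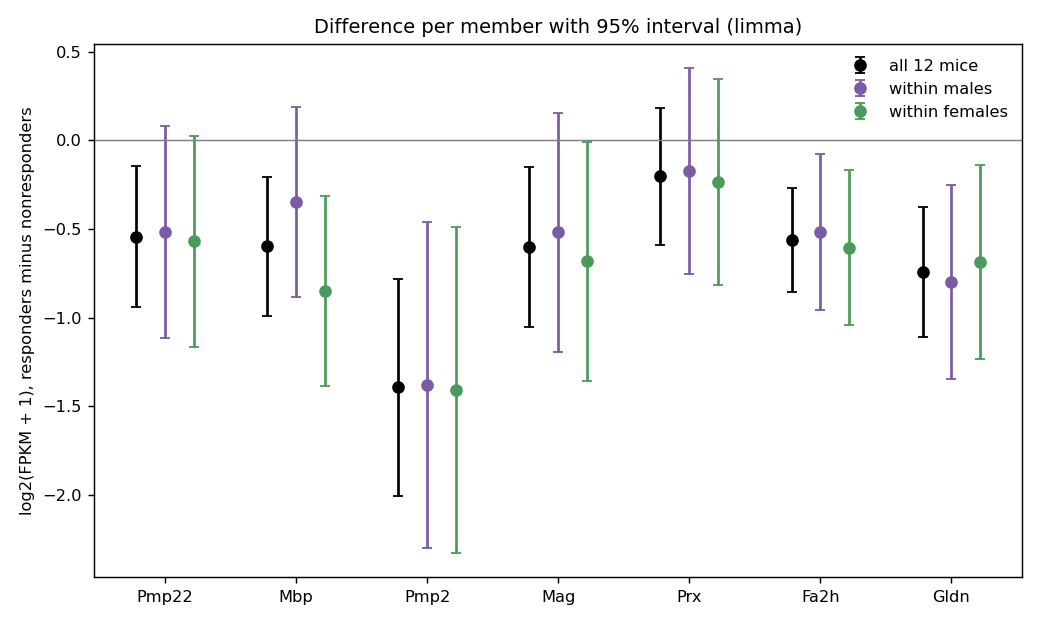
Log2(FPKM + 1) difference of responders minus nonresponders (vertical axis) for the 7 tested members with 95% intervals from limma, over all 12 mice, within males and within females. Every point lies below 0; over all 12 mice the interval of Prx, -0.59 to 0.18, is the only one that spans 0.

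All 7 members had values below 0 within each sex. Within males and within females, Pmp2 had -1.38 and -1.41, Gldn -0.80 and -0.69, Fa2h -0.52 and -0.60, and Pmp22 -0.52 and -0.57 on the log2 scale. Mag had -0.52 and -0.68, and Prx -0.17 and -0.23. Mbp had the widest gap, at -0.35 in males and -0.85 in females. In females the 3 responders had 401 ± 81.8 and the 3 nonresponders 721 ± 138 FPKM of Mbp (SD, n = 3), and in males 403 ± 116 and 498 ± 43.4 FPKM. No member was called within males (0.0141% of genes called) or within females (0.00704%), with 3 and 5 members lower at an unadjusted p under 0.05 (3.67% and 3.68% of genes). The test of the difference between the sexes called 0 genes (0%), with 711 genes at an unadjusted p under 0.05, and gave -0.50 for Mbp (interval -1.26 to 0.25, limma adjusted p = 0.836) and values from -0.16 to 0.11 for the others. These intervals are wide enough to hold differences of the size of the group effect itself.

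Females had higher values than males for 6 of the 7 members, by 0.21 (Gldn) to 0.32 (Mag) on the log2 scale, as did 48.3% of all genes, and Pmp2 stood at -0.30. Each member had a limma adjusted p of 0.864, so 0 were called, against 0.0563% of all genes.

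The proportions between the members were more regular than their levels. From high to low the order was Pmp22, Mbp, Prx, Fa2h, Mag, Gldn and Pmp2 in 9 of 12 mice. In the other 3, responder 3 and nonresponders 3 and 6, Mag stood above Fa2h. FPKM is per length, but widely used genes such as Eef2 were listed low, and the values of Mal and Pmp2 are uncertain. The order and the shares therefore describe the listed values only. Pmp22 took 62.0% ± 4.52 of the summed FPKM of the 8 members in responders and 62.7% in nonresponders, and Mbp took 22.7% and 23.7%. The sum itself was 1199 to 2318 FPKM in responders and 2058 to 3079.7 FPKM in nonresponders.

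Prx, Pmp22 and Gldn kept the tightest proportions within a group. The SD of the log2 ratio over mice, within groups, was 0.124 for Pmp22 to Prx, 0.125 for Pmp22 to Gldn and 0.141 for Prx to Gldn. Each of these genes alone had an SD of 0.335 to 0.343 on the log2 scale, so a mouse with more of one had more of the others. Of the 21 pairs among the 7 members, 11 had a ratio less variable than either gene, and the most variable pair was Pmp2 to Mag, with an SD of 0.835. As a description over 12 mice of the same libraries, deviations from the mean of the same group and sex correlated with the mean of the other members at r = 0.932 for Fa2h, 0.915 for Prx, 0.886 for Gldn, 0.825 for Pmp22, 0.757 for Mbp, 0.662 for Pmp2 and 0.224 for Mag.

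Although these genes varied together from mouse to mouse, the ratios of Gldn and Pmp22 to Prx did not overlap between responders and nonresponders. Gldn amounted to 4.797%, 4.64%, 5.17%, 4.35%, 5.63% and 4.68% of Prx in responders 1 to 6. In nonresponders 1 to 6 it amounted to 7.78%, 7.33%, 6.99%, 8.87%, 6.91% and 6.68% of Prx. The lowest nonresponder lay above the highest responder, although the levels of both genes overlapped between the groups. The means were 4.88% ± 0.456 and 7.43% ± 0.804 (SD, n = 6 per group).

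Pmp22 showed the same separation against Prx. It stood at 618%, 529%, 535%, 569%, 622% and 593% of Prx in responders and at 819%, 785%, 675%, 781%, 644% and 686% in nonresponders. These ratios too did not overlap, with means of 578% ± 40.4 and 732% ± 72.1. A ratio within 1 mouse does not depend on how that library was scaled, so the pituitary share of responder 1 does not enter it through scaling.

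Of all 14202 other genes, 31 had ratios to Prx that did not overlap between the groups (0.218%), 22 of them higher and 9 lower in responders (0.0634%), and Pmp22 and Gldn were among those 9. Seen from the other gene of each pair, separation was more common: 1480 genes had ratios to Gldn that did not overlap (10.4%), 1479 of them higher in responders (10.4%), and 315 had such ratios to Pmp22 (2.22%), 313 of them higher (2.2%). Among the 21 pairs of members only these 2 ratios separated the groups. As Pmp22 makes up most of the member sum, the share of Prx in it largely restates the ratio to Pmp22; it stood at 10.1% to 11.8% in responders (10.8% ± 0.587) and 8.16% to 9.88% in nonresponders (8.61% ± 0.658), and the shares of the other members overlapped between the groups.

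Pmp2 had the widest gap in mean ratio, at 1.67% ± 0.448 of Prx in responders and 4.72% ± 1.51 in nonresponders. Its 6 responders ran from 1.00% to 2.25% of Prx. Nonresponder 3, at 1.99%, lay within their range, and the other 5 nonresponders, from 4.09% to 6.13%, lay above it. Fa2h was at 19.1% ± 2.32 and 24.7% ± 2.70 of Prx, Mbp at 213% ± 44.5 and 277% ± 43.6, and Mag at 16.6% ± 6.91 and 21.3% ± 4.65, and all 3 overlapped between the groups.

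**Figure D3:**
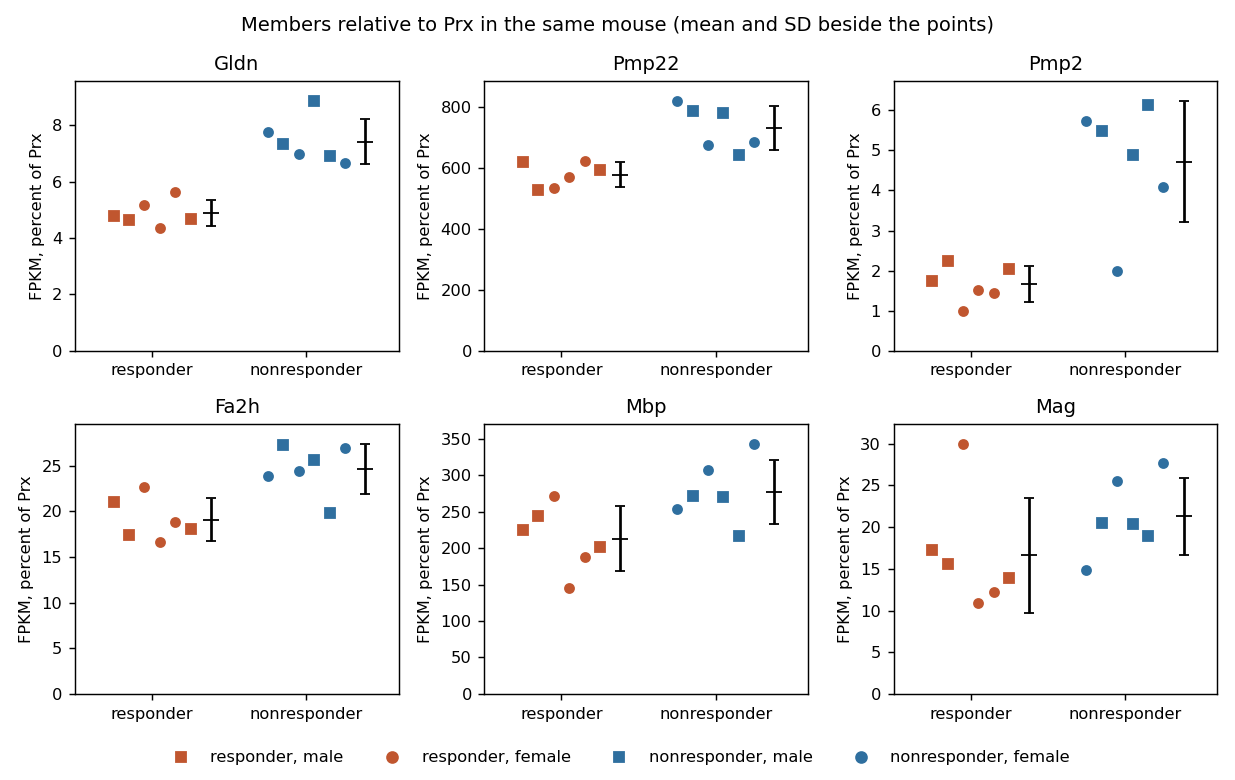
FPKM of 6 members as a percent of the FPKM of Prx in the same mouse (vertical axes, linear from 0), for 6 responders and 6 nonresponders, with the mean and SD beside the points. Gldn, 4.35 to 5.63% against 6.68 to 8.87%, and Pmp22, 529 to 622% against 644 to 819%, do not overlap between the groups; the other 4 do.

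With every gene expressed relative to Prx in the same mouse, limma called 2 genes (0.0141%) and 0 members, and the median over all genes was 0.21 on the log2 scale. All 6 remaining members had values below 0, against 16.7% of genes, and Pmp2 and Gldn were lower at an unadjusted p under 0.05, as 0.479% of genes were. Pmp2 stood at -1.19 (SE 0.214, limma adjusted p = 0.159), the 5th smallest p of all genes. Without nonresponder 3, the mouse whose ratio lay within the responders, it was called, at -1.35 (limma adjusted p = 0.0498). Without any other single mouse it was not called, with a limma adjusted p of 0.217 to 0.486. Gldn had -0.54 (SE 0.166) and Pmp22 -0.34 (SE 0.164), each with a limma adjusted p of 0.739. These log2 values carry the added 1, which shrinks the change of the low genes Pmp2 and Gldn.

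Relative to Mbp, a gene that oligodendrocytes share, 4 of the other 6 members lay within 0.15 of 0. Pmp22 had 0.06, Fa2h 0.04, Mag -0.003 and Gldn -0.15 on the log2 scale, and Prx had 0.39 (limma adjusted p = 0.115). In this fit 40.5% of all genes were called, because Mbp itself had lower values in responders and the median of all genes was 0.60, so calls here say little about single genes. Pmp2 was the only member called, at -0.79 (SE 0.279, limma adjusted p = 0.0463), and 7 genes in all (0.0493%) were called in the lower direction. This call held in only 4 of 15 alternatives, the replicate block (limma adjusted p = 0.0287) and the fits without responder 2, responder 6 or nonresponder 2. It was lost with an added value of 0.1 (0.0587), with no covariate (0.0518) and without any other single mouse, where the adjusted p ran up to 0.107.

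Ratios of Mag and Mbp to Prx, and in part of Fa2h, were high in mice with high oligodendrocyte markers. The 12 markers, such as Mobp, Opalin and Cldn11, summed to 89.1, 127, 211, 63.0, 98.9 and 114 FPKM in responders. They summed to 99.6, 214, 288, 191, 104 and 365 FPKM in nonresponders, so that central myelin transcripts were listed in every library, and Mog and Tspan2 were under 1 FPKM in all mice. The groups overlapped. All 10 tested markers had values below 0 (median -0.39 on the log2 scale), 1 at an unadjusted p under 0.05, and 0 were called. Responder 3 and nonresponders 3 and 6, where Mag stood above Fa2h, had Mag at 29.9%, 25.5% and 27.7% of Prx, the 3 highest ratios of all mice. Responder 4, with the lowest marker sum, had the lowest ratios to Prx of Mag (10.9%) and Mbp (145%), and also of Fa2h (16.6%) and Gldn (4.35%). The ratio of Fa2h was highest in nonresponders 2 and 6, at 27.25% and 27.0%, both with high marker sums.

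In a limma fit of the mean log2 marker level beside group and sex, 27 genes were called (0.19%). Mag had the steepest slope of the members, at 0.58 log2 units per log2 unit of markers (SE 0.174, 95% interval 0.20 to 0.97, limma adjusted p = 0.836), and Mbp had 0.32 (SE 0.194). Fa2h had 0.04, and Gldn, Prx, Pmp22 and Pmp2 had -0.19, -0.20, -0.29 and -0.56. None of the 7 was called. With this covariate the group difference of Mag was -0.32 and that of Mbp -0.44, whereas Pmp2 stood at -1.66, Gldn at -0.83, Pmp22 at -0.68, Fa2h at -0.54 and Prx at -0.30, so Pmp2, Gldn, Pmp22 and Prx lay farther from 0 with it than without it.

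**Figure D4:**
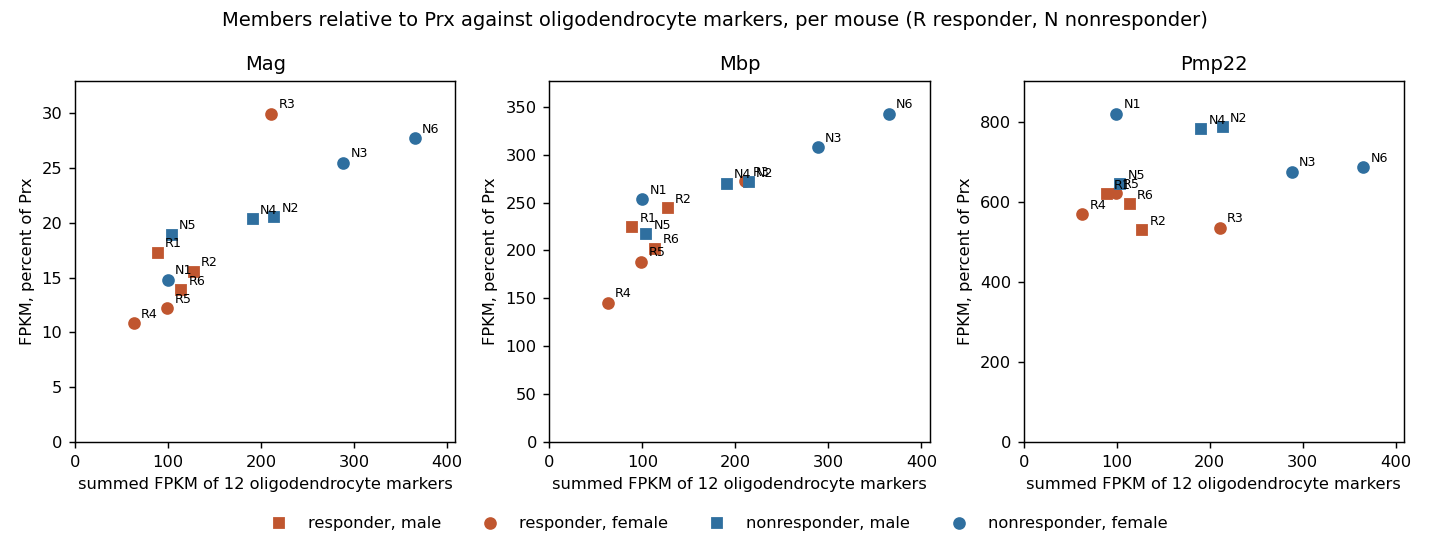
Mag, Mbp and Pmp22 as a percent of Prx in the same mouse (vertical axes) against the summed FPKM of 12 oligodendrocyte markers (horizontal axes, 63.0 to 365 FPKM), 1 point per mouse, with R for responders and N for nonresponders. The ratios of Mag and Mbp are highest in mice with high marker sums (N3, N6 and R3), while the ratio of Pmp22 shows no such order.

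The lists of sheath genes, which hold the members too, had mostly values below 0, with 0 called in each list. Of 9 compact myelin genes 7 were tested, 6 had values below 0 and 5 were lower at an unadjusted p under 0.05. The members Pmp22, Mbp and Pmp2 are among these 5, and the median log2 difference of -0.54 is that of Pmp22. Of 12 noncompact myelin and paranode genes, 9 were below 0 and 5, Mag among them, had such a p (median -0.25). Gjc3, a glial gap junction protein, stood at 20.9 ± 4.02 and 27.8 ± 1.39 FPKM, and Mpp6, a scaffold protein, at 5.47 ± 1.33 and 8.41 ± 2.21 FPKM.

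All 10 genes of the periaxin and basal lamina list, Prx among them, had values below 0, with a median of -0.24. Of these, 1 had an unadjusted p under 0.05, the laminin gene Lama4 at 8.45 ± 1.36 and 10.3 ± 0.631 FPKM. Of 13 lipid synthesis genes 12 were below 0 and 4, the member Fa2h among them, had such a p (median -0.18). Elovl6, which lengthens fatty acids, had 18.2 ± 2.48 and 24.1 ± 5.96 FPKM, and Gal3st1, which makes sulfatide, 7.12 ± 2.10 and 10.4 ± 2.59 FPKM.

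Gldn differed from most other genes of the node. Of the 10 node genes, Gldn included, 8 had values above 0, with a median of 0.14, and most of these are made by the neuron. Gldn was the lower of the 2 genes below 0. Within males Gldn was again the lowest, at -0.80, but within females another gene was lowest, at -1.15 against -0.69 for Gldn. Scn8a, the sodium channel of the mature node, had 30.0 ± 6.45 FPKM in responders and 22.2 ± 3.31 in nonresponders, a log2 difference of 0.40 (limma adjusted p = 0.602). Nrcam, the partner that Gldn binds with neurofascin on the axon, had 37.4 ± 4.60 and 31.5 ± 4.93 FPKM.

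Transcription factors and signals of myelination had smaller median differences than compact myelin genes. Of 11 Schwann cell transcription factors 9 were below 0 (median -0.17), and Zeb2, which Schwann cells need to differentiate, had 6.66 ± 2.26 and 9.76 ± 1.65 FPKM with the only unadjusted p under 0.05. Sox10 had 39.1 ± 9.11 and 45.9 ± 5.91 FPKM. Egr2, the main driver of myelin genes, varied widely in both groups, over 0.681 to 9.66 FPKM in responders against 0.874 to 11.4 FPKM in nonresponders. Of the signals that drive myelination 4 of 8 tested genes were below 0 (median -0.02), with Lpar1, a lysophosphatidic acid receptor, at 17.6 ± 8.76 and 30.2 ± 4.12 FPKM. Of the genes of immature, repair and nonmyelinating Schwann cells, 8 of 12 were below 0, with a median of -0.05 and none at an unadjusted p under 0.05.

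Marker sums of the other cells stood apart between the groups to different degrees, and their part in the member values was not tested. The 8 fibroblast markers summed to 262 to 515 FPKM in responders and 553 to 1615 FPKM in nonresponders without overlap, and 5 of 7 tested were lower at an unadjusted p under 0.05 (median -0.96). Taken singly, Col1a1, Col1a2, Col3a1, Dpt and Dcn overlapped between the groups, and Dcn had the higher mean in responders (22.9 and 21.1 FPKM). The separation of the sums thus does not hold for each marker. In nonresponder 6 the sum was 1197.5 FPKM, with Col1a1 at 26.8, Col1a2 at 83.7 and Dcn at 21.4 FPKM. Col3a1 and Dpt stood at 0.816 and 0.990 FPKM there, so most of that sum came from the other markers, Pdgfra, Lum and Ptgds. Neuron markers summed to 3609.8 to 7364 and 4133 to 6270.4 FPKM, with 9 of 10 above 0 and a median of 0.11. Satellite glial markers summed to 734 to 2089 and 1313 to 2585 FPKM, with 7 of 9 below 0 (median -0.12) and Slc1a3 at 4.13 ± 0.519 and 6.61 ± 1.92 FPKM. Astrocyte markers had 5 of 6 below 0 (median -0.34), endothelial 6 of 7 (-0.23), macrophage 2 of 6 (0.05) and adipocyte 3 of 3 (-1.36). All 8 pituitary markers were above 0, with 7 at an unadjusted p under 0.05 and a median of 2.73.

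**Figure D5:**
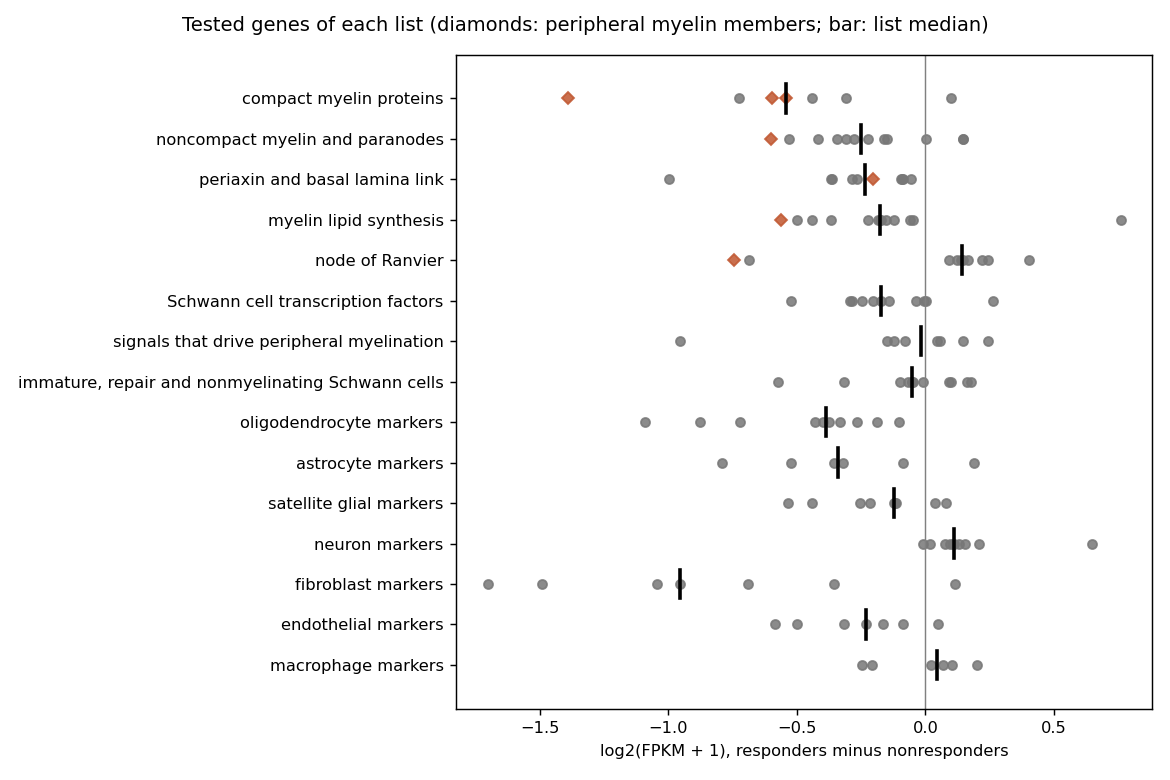
Log2(FPKM + 1) difference of responders minus nonresponders (horizontal axis) for each tested gene of 15 lists, with members as diamonds and a bar at each list's median. Adipocyte and pituitary markers are not drawn. Of the lists drawn, fibroblast markers (median -0.96) and compact myelin (-0.54) lie farthest below 0, and the medians of node genes (0.14), neuron markers (0.11) and macrophage markers (0.05) lie above it.

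By deviations from the mean of the same group and sex, the 8 protein-coding genes outside the members that were most like the mean of the members over 12 mice were Arhgef15 (r = 0.940), Zdhhc21 (0.933), Gm20683 (0.932), Arl16 (0.931), Plxnb3 (0.929), Csnk2a1 (0.926), Map4k4 (0.925) and Abca7 (0.924). They were picked as the highest of all genes, and none was on a list above. Arhgef15 alone had an unadjusted limma p under 0.05 between the groups, at 1.53 ± 0.340 and 1.94 ± 0.165 FPKM. Plxnb3 stood at 6.10 ± 0.965 and 6.54 ± 0.474 FPKM and Csnk2a1 at 35.5 ± 1.11 and 37.0 ± 0.826 FPKM. Zdhhc21 stood at 1.122 ± 0.698 and 1.57 ± 0.463 FPKM, and 0 of these 8 genes were called.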

How the data were processed

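The authors deposited 1 table of FPKM values, made from their aligned reads, for 51341 genes in 12 mice. The unit is not named in it and was read from the values, since their totals differ between mice and low values of single-exon genes lie near steps. Of these low values 20.1% to 27.3% lay within 0.05 of whole fragments, against 10% by chance at 1 fixed depth. The depth used for each mouse was the one with the highest such share, and the chance level of that highest share was not computed. The tools named per the submitters' processing notes are STAR (2.6.0a) together with StringTie (1.3.5), and the builds GRCm38 and mm10. The sources used here give no annotation, filter or use of strand. Symbols came from GENCODE M21 (51024 genes). Groups came from the titles and sex from the characteristics.

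limma 3.58.1 in R 4.3.3 was fitted to log2(FPKM + 1) for genes of at least 1 FPKM in at least 3 mice, with sex as covariate and Benjamini-Hochberg adjustment over all genes tested, after a test on simulated data. Ratios were fitted by subtracting the log2 value of Prx or Mbp in the same mouse. The members and gene lists were chosen with earlier results of these data known. Named genes are the members, up to 3 genes of each list with the smallest p, and the 8 genes most like the members' mean; some that this rule picks are not reported here. Shared sequence was searched with blastn 2.17.0 (at least 90% identity over 200 bases). Alternatives covered the added value, filter, scaling, covariates, blocks and leaving out mice.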

Additional observations from a re-analysis of the deposited data

Results flagged for a closer look

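Mag in responder 3 stood far from the other responders in both of its ratios. It amounted to 29.94% of Prx, against 10.9% to 17.3% in the other 5, and to 11.01% of Mbp. The same mouse had the highest sum of oligodendrocyte markers among responders, 211 FPKM; the part of those cells in the ratio was not tested. These were the 2 of 40 groups of 6 mice whose extreme mouse lay beyond Dixon's 95% critical value, and chance alone passes that value in about 1 group in 20.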

How the results depend on the processing

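For responders against nonresponders, all 7 tested members stayed below 0 and uncalled in each of 27 alternatives, with 4 to 6 at an unadjusted p under 0.05 and a median of -0.68 to -0.51. The lowest limma adjusted p was 0.101, for Pmp2. Over all genes 3 were called; the count was 1 with at least 1 FPKM in all 12 mice, 1 with the replicate block and 1 when mice were averaged by description number, and 2 to 6 when single mice were left out (5 without responder 2, 6 without responder 5 and 6 without responder 6). The replicate numbers did not pair the mice: same-numbered deviations correlated at -0.25 to 0.24, and the replicate block changed no call of a member. Relative to Prx, 0 members were called, and 0 to 1 with single mice left out. Relative to Mbp, 1 member was called, and 0 with an added value of 0.1 or with no covariate (Pmp2 -1.04 and limma adjusted p = 0.0587, and 0.0518), and 0 to 1 with single mice left out, where Pmp2 ranged from -0.99 to -0.64. There Mag, at -0.003 with all mice, ran from -0.12 to 0.049, Pmp22 from -0.061 to 0.16 and Fa2h from -0.035 to 0.11, so that each took both signs; the cause was not tested. No counts were used, so counting error is unknown, and 6 mice per group limit the precision.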
